A study of Mus musculus with 18 samples.

Results

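The 54 genes described here act in mitosis: they build the spindle, attach chromosomes to it, check the attachment and divide the cell. They were chosen by gene symbol and sorted by role into 10 groups. The probe annotation paired 47 of the 54 symbols with 76 of 25697 probes. Cenpf, Aurkb, Ccnb1, Racgap1, Smc4, Ncapg and Mki67 had no probe in that annotation and were not analysed here.

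Expression was read on 18 Illumina bead arrays, on which the brightness of a bead-bound probe follows the abundance of its transcript. The 12 lung arrays each held total RNA of 1 male C57BL/6 mouse aged 8 to 12 weeks, and the study asked how far interleukin-4 (IL-4) shapes the early lung response to low oxygen. IL-4 knockout mice that breathed 10% oxygen for 4 days are called KO hypoxia and IL-4 knockout mice in room air KO normoxia. WT hypoxia and WT normoxia are wild-type mice under the same 2 conditions, and each of the 4 groups had 3 mice. The labels give the genotype only as IL-4 KO and do not say how, or in which cells, the Il4 gene was disrupted. The other 6 arrays held RNA of cultured cells that the labels call pulmonary microvascular endothelial cells (PMVEC), isolated from wild-type female C57BL/6 mice aged 4 to 6 weeks and used at passages 3 to 5. They had 24 h of recombinant IL-4 at 50 ng/mL (rIL-4) or of vehicle, with 3 arrays each. Nothing says whether these 3 were separate isolations, so p-values in PMVEC measure only the spread between these samples.

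Cell division runs on a transcription programme that switches on late in the cycle. Cyclin-bound Cdk1 starts mitosis, motor proteins and crosslinkers then shape a bipolar spindle, and the kinetochore couples each chromosome to its microtubules. A checkpoint holds the anaphase promoting complex back until all chromosomes are attached, after which separase cuts cohesin and the cell divides. Because these transcripts are made mainly by cycling cells, the group is widely read as a sign of proliferation, and resting adult lung holds few such cells.

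Before the results, the samples were set against their labels. The Il4 probe had log2 levels of 5.86, 5.37 and 5.58 in KO hypoxia and 5.72, 4.97 and 5.63 in KO normoxia, against 7.64, 7.28 and 7.25 in WT hypoxia and 8.26, 8.13 and 7.67 in WT normoxia. The knockout and wild-type values did not overlap, and the knockout values were the lower. The probe was still detected on 2 of 3 arrays in each knockout group, and on 3 of 3 in each wild-type group. The cells labelled PMVEC lacked most markers of their label: of 11 endothelial markers with a probe, Cdh5, Tek, Tie1, Vwf, Emcn, Esam and Robo4 were detected on 0 of 6 arrays, Pecam1 on 1, Kdr on 5, and Eng and Ramp2 on 6. Of 8 smooth muscle and pericyte markers, Acta2, Tagln, Des, Pdgfrb, Cspg4 and Notch3 were detected on 6 of 6, and Myh11 and Cnn1 on none. Of 8 fibroblast markers, 6 were detected on 6 of 6, and Lum and Tcf21 on none. They are therefore called cells labelled PMVEC below. Lung arrays had 60.2% to 64.2% of probes detected and a median raw signal of 126 to 152, against 45.1% to 46.9% and 52.3 to 59.4 in the cells labelled PMVEC. No 2 arrays were identical, and arrays of a group correlated across probes at r = 0.980 to 0.995.

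Of the 47 members with a probe, 40 were bright enough to test in lung, meaning a detection p under 0.05 on at least 3 of 12 arrays. Cks1b, Kif20a, Ccnb2, Bub1, Nuf2, Cenpe and Cks2 were not, and of these Cks1b was detected on 1 lung array and the other 6 on none. Among the 40, 31 were detected on at least 3 of the 6 normoxic arrays. The other 9 passed through the hypoxic arrays, and Ttk, Cdca8, Kif11, Hmmr, Espl1 and Smc2 were detected on no normoxic array at all. Of the rest, Kif2c and Melk were detected on 1 normoxic array and Ect2 on 2. These 9 would not have passed on the normoxic arrays alone, so the main values over 40 are followed by those over the 31. The counts by role and the averages per array hold all 40. Where a role includes any of the 9, its count and median rest partly on that filter.

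Mitotic genes rose together in hypoxic lungs of both genotypes. In KO hypoxia over KO normoxia, 37 of 40 tested members were called higher and 0 lower at a limma adjusted p under 0.05, against a background of 4.96% of 12571 genes called higher and 3.82% lower. Their median log2 change was 1.67, a fold of 3.17, against 0.03 for all genes. The count was 19 with liver transcripts, which were high in KO normoxia, as a covariate. In WT hypoxia over WT normoxia, 33 of 40 were called higher and 0 lower, where 7.48% of all genes were called higher and 4.32% lower, and the median log2 change was 1.58, a fold of 2.98, against 0.00 for all genes. Among the 31 members detected in normoxia, 29 were called higher in the knockout and 26 in the wild type, with median log2 changes of 1.78 and 1.67. Changes of at least 1 on the log2 scale were called for 31 members in the knockout and 29 in the wild type, and for 25 of the 31 in each. Groups did not overlap for 38 members in KO lungs (15.1% of all genes, higher direction) and for 34 in WT lungs (15.6%), of which 29 and 27 were among the 31. In whole lung, more dividing cells and more of each transcript per dividing cell cannot be told apart.

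**Figure D1:**
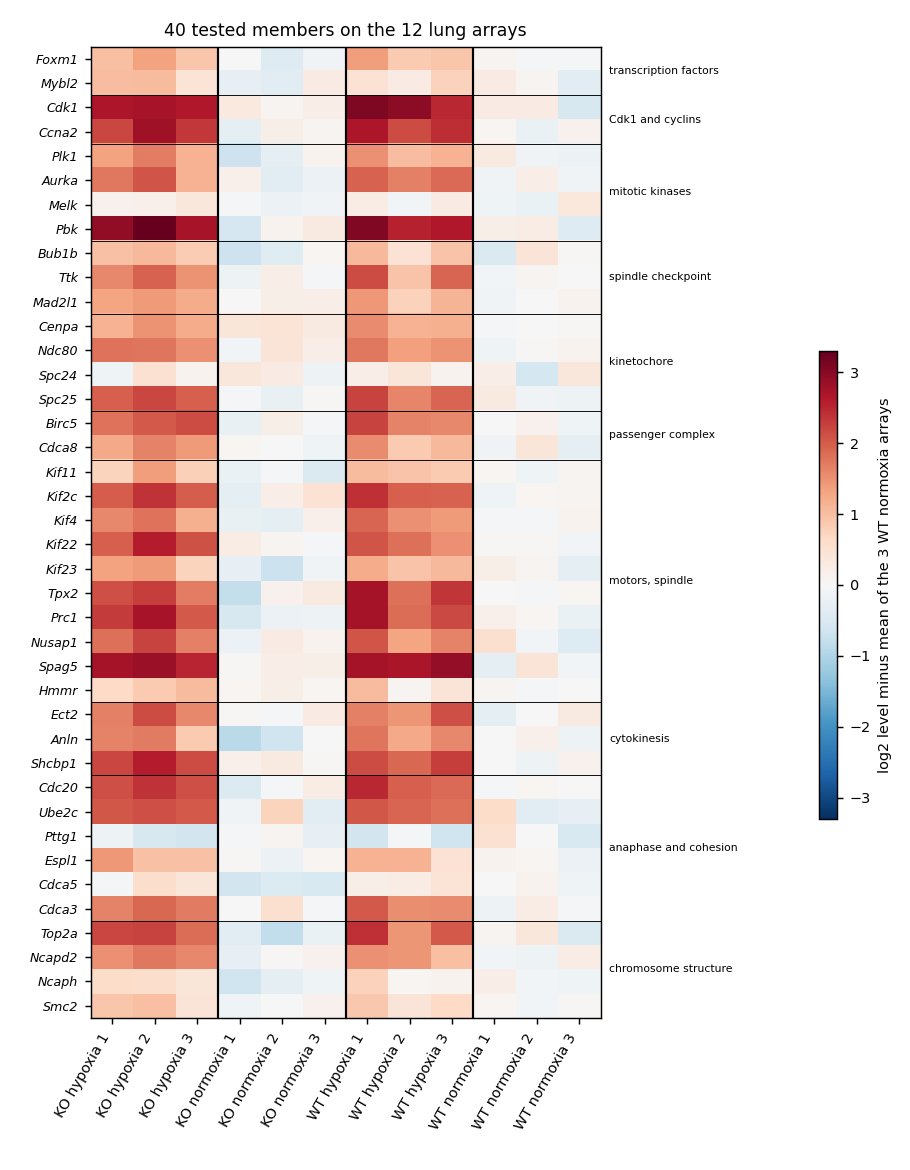
Log2 level of the 40 tested members (rows, by role) on the 12 lung arrays (columns) as the difference from the mean of the 3 WT normoxia arrays, with red higher and blue lower. The KO hypoxia and WT hypoxia columns are red for nearly all rows, while Melk, Spc24 and Pttg1 stay pale.

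Every hypoxic lung showed the rise. Averaged over the 40 tested members, the difference from the WT normoxia mean was 1.49, 1.73 and 1.37 on the 3 KO hypoxia arrays and -0.18, -0.03 and 0.02 on the KO normoxia arrays. It was 1.68, 1.26 and 1.39 in WT hypoxia and 0.05, 0.03 and -0.08 in WT normoxia. The lowest of the 6 hypoxic arrays, WT hypoxia 2, stood far above the highest of the 6 normoxic ones, WT normoxia 1, so the averages did not overlap in either genotype. These averages hold all 40 members, with the 9 that passed the filter through the hypoxic arrays, and were not taken over the 31.

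The members share promoter letters that the choice of genes did not use. Some short motifs recur in promoters of mitotic genes: CCAAT, bound by the factor NF-Y, and the cell cycle genes homology region, bound by MuvB complexes that hold such genes silent in resting cells and help to drive them in dividing ones. The homology region was searched as TTTGAA and as TTCGAA, its common forms, and all 3 strings on both strands, in windows of 300 bases from 250 before to 50 after the start. RefSeq promoters of GRCm38.p6 were at hand for 45 of the 54 members, as 47 windows. TTTGAA or TTCGAA stood in 36 of the 47 (76.6%), against 19.2% of all 32851 promoters. CCAAT stood in 35 (74.5%), against 37.4% of all. Both kinds stood together in 32 (68.1%), against 7.52% of all. In the last 100 bases before the start, TTTGAA or TTCGAA stood in 25.5% of member promoters against 6.13% of all, and CCAAT in 66% against 18.9%.

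Promoters of the 4 members with the largest mean hypoxia change and a single window are printed here to show the motifs, with the matches to these 3 strings, on either strand, in capitals and without overlap between them.
Cdk1, chr10:69352863-69353162, minus strand: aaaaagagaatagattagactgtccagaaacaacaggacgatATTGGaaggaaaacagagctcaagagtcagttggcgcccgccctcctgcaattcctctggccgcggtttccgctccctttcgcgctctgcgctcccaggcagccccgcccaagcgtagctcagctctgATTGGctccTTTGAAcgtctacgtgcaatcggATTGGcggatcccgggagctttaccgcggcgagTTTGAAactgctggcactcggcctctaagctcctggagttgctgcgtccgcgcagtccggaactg
Spag5, chr11:78301341-78301640, plus strand: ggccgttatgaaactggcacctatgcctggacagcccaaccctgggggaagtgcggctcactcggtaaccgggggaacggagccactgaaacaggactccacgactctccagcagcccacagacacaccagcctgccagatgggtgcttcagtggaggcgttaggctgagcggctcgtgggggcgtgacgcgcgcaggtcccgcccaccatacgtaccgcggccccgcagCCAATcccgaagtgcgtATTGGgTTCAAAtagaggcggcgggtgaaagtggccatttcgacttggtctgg
Cdc20, chr4:118437294-118437593, minus strand: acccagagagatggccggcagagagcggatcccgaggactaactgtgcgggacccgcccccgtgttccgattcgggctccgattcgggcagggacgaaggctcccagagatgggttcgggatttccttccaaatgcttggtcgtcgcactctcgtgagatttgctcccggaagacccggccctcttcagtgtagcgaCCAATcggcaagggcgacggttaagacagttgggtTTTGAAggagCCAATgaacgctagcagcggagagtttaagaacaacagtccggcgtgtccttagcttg
Top2a, chr11:99024140-99024439, minus strand: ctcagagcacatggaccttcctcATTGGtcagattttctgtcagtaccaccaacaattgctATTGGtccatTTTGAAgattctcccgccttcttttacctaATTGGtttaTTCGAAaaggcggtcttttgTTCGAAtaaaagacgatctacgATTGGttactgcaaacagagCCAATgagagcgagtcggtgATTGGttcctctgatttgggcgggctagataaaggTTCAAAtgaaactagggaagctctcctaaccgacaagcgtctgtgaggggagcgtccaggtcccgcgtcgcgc
Top2a had 6 CCAAT matches and 4 of the homology region, Cdk1 3 and 2, and Spag5 and Cdc20 2 and 1 each. The match nearest the start began 15 bases before it in Cdk1 and 8 bases before it in Cdc20.

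Melk and Pttg1, which were called in neither genotype by the brightest probe, held none of the 3 strings in their windows and are printed too. A dimmer Melk probe was called higher in both genotypes, by 0.92 in the knockout and 0.84 in the wild type.
Melk, chr4:44300667-44300966, plus strand: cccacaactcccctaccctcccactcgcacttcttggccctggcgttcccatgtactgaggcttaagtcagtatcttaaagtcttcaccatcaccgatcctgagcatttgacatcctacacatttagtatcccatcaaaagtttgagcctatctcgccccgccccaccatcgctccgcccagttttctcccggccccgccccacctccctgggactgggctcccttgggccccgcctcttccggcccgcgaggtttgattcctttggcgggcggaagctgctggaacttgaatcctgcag
Pttg1, chr11:43425932-43426231, minus strand: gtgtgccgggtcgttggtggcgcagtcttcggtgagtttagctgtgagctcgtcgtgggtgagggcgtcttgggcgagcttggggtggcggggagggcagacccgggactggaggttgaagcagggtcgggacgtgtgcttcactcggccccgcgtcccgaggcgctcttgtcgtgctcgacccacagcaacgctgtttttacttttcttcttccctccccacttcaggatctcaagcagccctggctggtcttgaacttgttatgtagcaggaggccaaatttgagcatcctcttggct
Among members called in both genotypes, 24 of 30 windows held both kinds of motif, and among tested members called in at most 1 genotype, 1 of 6 did, that of Hmmr. The calls are those of the brightest probe, by which Melk is among the 6. Mybl2, Hmmr, Cdca5 and Ncaph, also among the 6, were called higher in the knockout. Spc24, called in neither genotype, had no window. These are counts of letters in a window, and whether the motifs bear on the hypoxia change was not tested. Birc5, Mad2l1 and Nusap1 were called in both genotypes with no match at all.

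Both transcription factors of the group rose in the knockout. Foxm1, a forkhead factor that drives genes of the G2 and M phases, had log2 levels of 7.42, 7.75 and 7.34 in KO hypoxia, against 6.40, 6.00 and 6.30 in KO normoxia. In WT hypoxia it had 7.81, 7.29 and 7.33, against 6.50, 6.38 and 6.38 in WT normoxia. All 6 hypoxic lungs exceeded all 6 normoxic ones, by 1.27 ± 0.17 in the knockout (log2 change ± SE, limma adjusted p = 3.8e-04) and 1.06 ± 0.17 in the wild type (limma adjusted p = 0.00136). Mybl2, the B-Myb partner of the MuvB complex, had 7.04, 7.06 and 6.46 in KO hypoxia against 5.75, 5.67 and 6.29 in KO normoxia, and 6.50, 6.29 and 6.77 in WT hypoxia against 6.29, 6.11 and 5.66 in WT normoxia. The groups did not overlap in the knockout, where it was called at 0.95 ± 0.23 (limma adjusted p = 0.020), and overlapped in the wild type, where 0.50 ± 0.23 was not called (limma adjusted p = 0.186). The knockout call was lost without KO normoxia 1 (adjusted p = 0.0765), KO normoxia 2 (0.0791), KO hypoxia 1 (0.0842) or KO hypoxia 2 (0.0763).

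Cdk1 and its cyclin partner showed some of the largest changes. Cdk1, the kinase that starts mitosis, had 8.36, 8.41 and 8.32 in KO hypoxia against 6.01, 5.77 and 5.91 in KO normoxia, and 8.76, 8.64 and 8.17 in WT hypoxia against 5.96, 5.95 and 5.15 in WT normoxia. The change was 2.47 ± 0.21 in the knockout (limma adjusted p = 1.9e-05) and 2.84 ± 0.21 in the wild type (limma adjusted p = 7.3e-06), with more than 2 log2 units between any hypoxic and any normoxic lung. Ccna2, the cyclin A of dividing body cells, had 8.63, 9.22 and 8.75 in KO hypoxia against 6.12, 6.62 and 6.52 in KO normoxia. In WT hypoxia it had 9.10, 8.58 and 8.87, against 6.50, 6.21 and 6.57 in WT normoxia. Its changes of 2.45 ± 0.19 and 2.42 ± 0.19 in knockout and wild type differed by less than their errors. The partners Ccnb2, Cks1b and Cks2 were too dim to test.

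Of the 4 mitotic kinases, 3 were called in both genotypes. Pbk, a kinase made in dividing cells, had 9.45, 9.83 and 9.24 in KO hypoxia against 5.98, 6.63 and 6.82 in KO normoxia, and 9.58, 9.06 and 9.16 in WT hypoxia against 6.71, 6.76 and 6.11 in WT normoxia. It had the largest change of the knockout, 3.03 ± 0.25 (limma adjusted p = 1.7e-05), and 2.74 ± 0.25 in the wild type (limma adjusted p = 2.2e-05). Aurka, which matures the spindle poles, changed by 1.78 and 1.83 in knockout and wild type, and Plk1, which acts from mitotic entry to cytokinesis, by 1.68 and 1.23. Melk, a kinase abundant in dividing cells, had 5.28, 5.31 and 5.51 in KO hypoxia against 5.10, 4.94 and 5.01 in KO normoxia, and 5.38, 5.04 and 5.39 in WT hypoxia against 4.99, 4.92 and 5.48 in WT normoxia. These levels lie near the detection limit, with detection on 3 of 12 arrays, and Melk was called in neither genotype through this probe (0.35 ± 0.16 and 0.14 ± 0.16).

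The spindle checkpoint, which delays anaphase, was represented by 3 tested genes of 4, and all 3 were called higher in both genotypes. Ttk, the kinase that recruits the checkpoint to unattached kinetochores, had 6.39, 6.76 and 6.28 in KO hypoxia against 4.64, 5.02 and 4.76 in KO normoxia. In WT hypoxia it had 6.96, 5.75 and 6.72, against 4.72, 4.90 and 4.81 in WT normoxia. It was detected on all hypoxic and no normoxic lungs, so it was at least 2.23-fold higher in the knockout and at least 2.04-fold higher in the wild type. Bub1b (BubR1), a part of the complex that blocks Cdc20, had 6.57, 6.68 and 6.43 in KO hypoxia against 4.91, 5.19 and 5.66 in KO normoxia, and 6.68, 6.07 and 6.55 in WT hypoxia against 5.13, 6.03 and 5.64 in WT normoxia. WT hypoxia 2 barely exceeded WT normoxia 2, and the wild-type call of 0.84 ± 0.24 (limma adjusted p = 0.0419) was lost without WT normoxia 1 (adjusted p = 0.159), WT hypoxia 1 (0.145) or WT hypoxia 3 (0.112), among others. Mad2l1 (Mad2), the other Cdc20 blocker, changed by 1.17 ± 0.15 and 1.10 ± 0.15 in knockout and wild type.

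The kinetochore group had 4 tested genes of 7, and 3 of them were called higher in both genotypes. Spc25, a subunit of the Ndc80 complex that grips microtubules, had 8.17, 8.40 and 8.18 in KO hypoxia against 6.14, 5.95 and 6.23 in KO normoxia, and 8.44, 7.82 and 8.13 in WT hypoxia against 6.49, 6.08 and 6.04 in WT normoxia. Its changes were 2.14 ± 0.17 in the knockout and 1.93 ± 0.17 in the wild type (limma adjusted p = 1.3e-05 and 2.0e-05). Ndc80, which names the complex, changed by 1.51 ± 0.15 and 1.53 ± 0.15. Cenpa, the histone that marks the centromere, had 10.97, 11.31 and 11.05 in KO hypoxia against 10.22, 10.27 and 10.11 in KO normoxia, and 11.38, 10.96 and 10.99 in WT hypoxia against 9.79, 9.82 and 9.85 in WT normoxia. The hypoxic levels were alike, while KO normoxia lay above WT normoxia on all 3 arrays, so the change was 0.91 ± 0.14 in the knockout and 1.29 ± 0.14 in the wild type. Spc24, the direct partner of Spc25, behaved otherwise. It had 11.19, 11.84 and 11.46 in KO hypoxia against 11.71, 11.61 and 11.17 in KO normoxia, and 11.55, 11.73 and 11.45 in WT hypoxia against 11.54, 10.76 and 11.70 in WT normoxia. These groups overlapped in both genotypes, with changes of 0.00 ± 0.24 and 0.25 ± 0.24.

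In the chromosomal passenger complex, which corrects wrong attachments and guides cytokinesis, both tested subunits were called higher in both genotypes. Birc5 (survivin) had 8.40, 8.64 and 8.77 in KO hypoxia against 6.38, 6.82 and 6.54 in KO normoxia, and 8.84, 8.25 and 8.20 in WT hypoxia against 6.63, 6.75 and 6.47 in WT normoxia. The change was 2.03 ± 0.18 in the knockout and 1.81 ± 0.18 in the wild type (limma adjusted p = 2.7e-05 and 4.6e-05). Cdca8 (borealin) had 6.19, 6.58 and 6.33 in KO hypoxia against 5.01, 4.95 and 4.79 in KO normoxia, and 6.49, 5.80 and 6.00 in WT hypoxia against 4.83, 5.34 and 4.64 in WT normoxia. It was detected on no normoxic array, which makes it at least 2.07-fold higher in the knockout and at least 1.57-fold higher in the wild type.

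Motors and spindle microtubule proteins formed the largest group, with 10 tested genes of 11. All 10 were called higher in the knockout and 9 in the wild type, with median changes of 1.92 and 1.74. Among the 10, Kif2c, Kif11 and Hmmr passed the filter through the hypoxic arrays. Spag5 (astrin), which stabilises attachments at spindle poles and kinetochores, had 8.61, 8.72 and 8.39 in KO hypoxia against 5.92, 6.08 and 6.07 in KO normoxia, and 8.62, 8.56 and 8.77 in WT hypoxia against 5.54, 6.30 and 5.77 in WT normoxia. The gap to normoxia was wider than 2 log2 units on all arrays, at 2.55 ± 0.17 in the knockout and 2.78 ± 0.17 in the wild type (limma adjusted p = 8.3e-06 and 3.6e-06). Prc1, which bundles microtubules of the central spindle, changed by 2.64 ± 0.23 in the knockout and 2.26 ± 0.23 in the wild type, and Tpx2, an activator of Aurka, by 2.15 ± 0.28 and 2.30 ± 0.28. Kif2c, a microtubule depolymerase, changed by 2.01 ± 0.20 and 2.10 ± 0.20, and with no detection in WT normoxia it was at least 3.11-fold higher in the wild type. Kif22, which pushes chromosome arms away from the poles, had 8.02, 8.64 and 8.14 in KO hypoxia against 6.30, 6.15 and 5.99 in KO normoxia, and 8.12, 7.88 and 7.57 in WT hypoxia against 6.09, 6.10 and 5.96 in WT normoxia, a change of 2.12 ± 0.18 and 1.81 ± 0.18. Kif4, Kif23, Nusap1 and Kif11 changed by 1.66, 1.52, 1.83 and 1.21 in the knockout and by 1.62, 1.08, 1.67 and 0.95 in the wild type. Kif11, the motor that pushes spindle poles apart, was detected on no normoxic array and was at least 1.93-fold higher in KO hypoxia and at least 1.74-fold higher in WT hypoxia. Hmmr, a spindle assembly factor, was the exception of the group. It had 5.29, 5.51 and 5.69 in KO hypoxia against 4.71, 4.84 and 4.71 in KO normoxia, and 5.67, 4.73 and 5.06 in WT hypoxia against 4.73, 4.56 and 4.62 in WT normoxia. In the wild type WT hypoxia 2 overlapped with normoxia, and 0.51 ± 0.20 was not called (limma adjusted p = 0.116), though without that array 0.72 was (adjusted p = 0.0320), while 0.75 ± 0.20 was called in the knockout (limma adjusted p = 0.0331), at least 1.13-fold. Leaving out any 1 KO normoxia array ended this call, with adjusted p-values of 0.0996, 0.0662 and 0.0779 without arrays 1, 2 and 3, and so did no background correction (adjusted p = 0.0514), no filter on dim probes (0.0520), an offset of 50 (0.0653) and the authors' deposited table (0.0836).

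**Figure D2:**
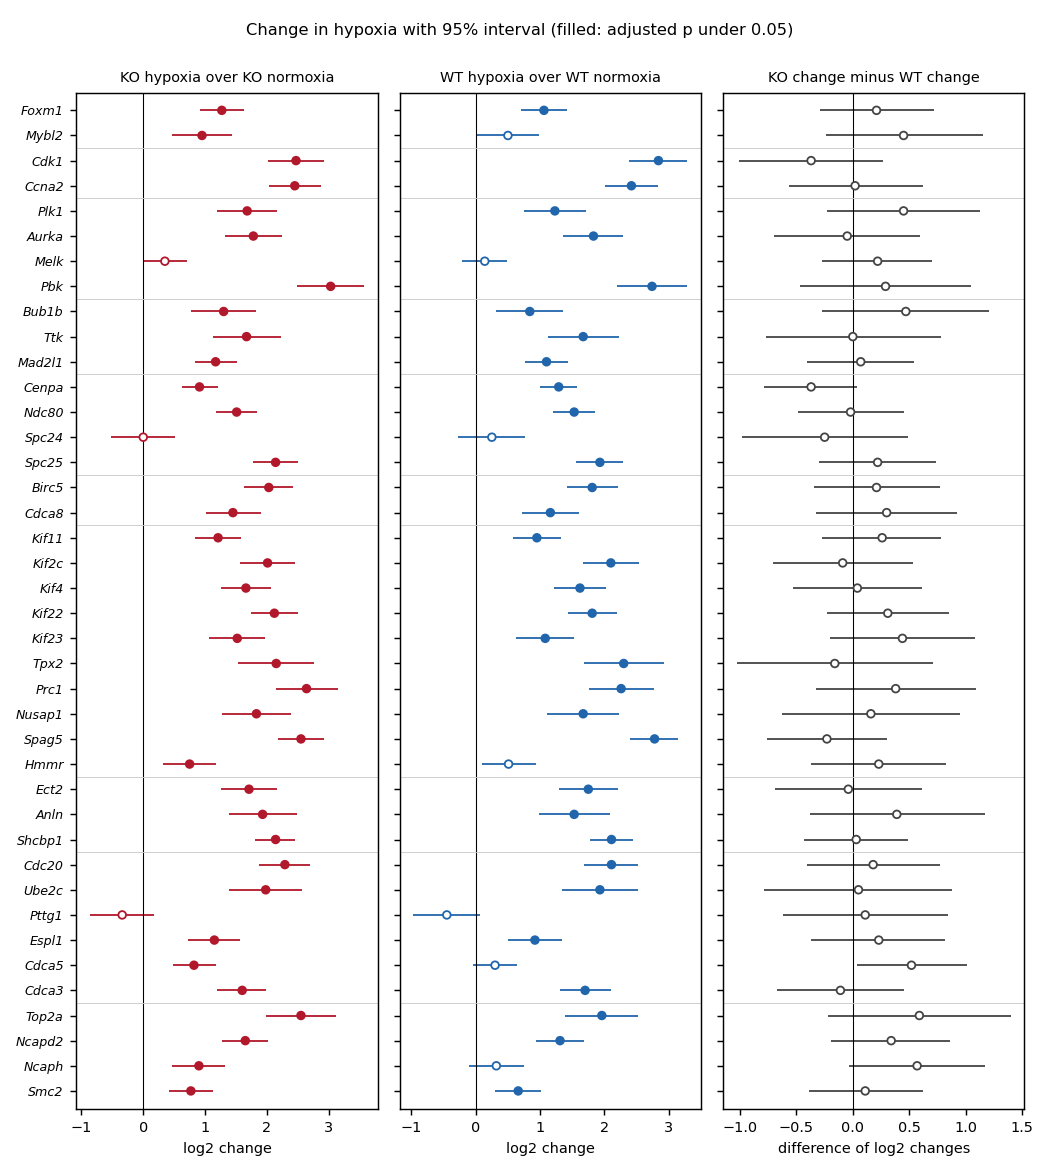
Log2 change of each tested member with its 95% interval in KO hypoxia over KO normoxia (left) and WT hypoxia over WT normoxia (middle), and the difference of these changes (right); filled points have an adjusted p under 0.05. Of 40 members, 37 are filled on the left, 33 in the middle and 0 on the right.

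All 3 tested cytokinesis genes were called higher in both genotypes. Shcbp1, a midbody protein of the central spindle, had 7.75, 8.14 and 7.72 in KO hypoxia against 5.73, 5.86 and 5.60 in KO normoxia, and 7.72, 7.44 and 7.83 in WT hypoxia against 5.56, 5.40 and 5.71 in WT normoxia. Its changes of 2.14 ± 0.15 and 2.11 ± 0.15 were among the tightest of the group. Anln (anillin), the scaffold of the contractile ring, had 9.87, 9.95 and 9.10 in KO hypoxia against 7.36, 7.57 and 8.22 in KO normoxia, and 10.00, 9.49 and 9.82 in WT hypoxia against 8.24, 8.40 and 8.07 in WT normoxia. The change was 1.93 ± 0.25 in the knockout and 1.53 ± 0.25 in the wild type. Ect2, which activates the small GTPase RhoA at the cleavage site, changed by 1.71 ± 0.21 and 1.75 ± 0.21, and passed the filter through the hypoxic arrays.

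Of the anaphase and cohesion genes, all 6 were tested, and 5 were called higher in the knockout and 4 in the wild type. Cdc20, the activator of the anaphase promoting complex, had 9.65, 9.92 and 9.65 in KO hypoxia against 7.07, 7.50 and 7.78 in KO normoxia, and 10.02, 9.50 and 9.40 in WT hypoxia against 7.46, 7.59 and 7.53 in WT normoxia. It changed by 2.29 ± 0.19 and 2.11 ± 0.19 in knockout and wild type (limma adjusted p = 1.8e-05 and 2.3e-05). Ube2c, the ubiquitin-conjugating enzyme of that complex, changed by 1.98 ± 0.27 and 1.93 ± 0.27, and Cdca3, a trigger of mitotic entry, by 1.60 ± 0.18 and 1.70 ± 0.18. Espl1 (separase), the protease that opens cohesin, was detected on all hypoxic and no normoxic lungs, and was at least 1.68-fold higher in the knockout and at least 1.33-fold higher in the wild type. Pttg1 (securin), the inhibitor that separase is held by, went the other way without a call. It had 6.35, 5.98 and 5.91 in KO hypoxia against 6.44, 6.59 and 6.24 in KO normoxia, and 5.89, 6.43 and 5.84 in WT hypoxia against 7.01, 6.51 and 6.00 in WT normoxia. The groups overlapped in both genotypes, with changes of -0.34 ± 0.24 and -0.45 ± 0.24 (limma adjusted p = 0.458 and 0.258).

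Cdca5 (sororin), which protects cohesin until anaphase, was called in the knockout alone. It had 6.47, 7.12 and 6.94 in KO hypoxia against 5.93, 6.09 and 6.04 in KO normoxia, and 6.73, 6.79 and 7.00 in WT hypoxia against 6.56, 6.65 and 6.41 in WT normoxia. Groups did not overlap in either genotype, but the change was 0.82 ± 0.16 in the knockout (limma adjusted p = 0.00602) and 0.30 ± 0.16 in the wild type (limma adjusted p = 0.263). The 2 normoxic groups also did not overlap, the knockout being lower, which the genotype comparison takes up.

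Among genes of chromosome structure, 4 of 7 were tested. Top2a, the topoisomerase that untangles sister DNA, had 7.85, 7.86 and 7.48 in KO hypoxia against 5.27, 4.83 and 5.42 in KO normoxia, and 8.05, 7.09 and 7.67 in WT hypoxia against 5.74, 6.02 and 5.16 in WT normoxia. It changed by 2.55 ± 0.26 in the knockout and 1.96 ± 0.26 in the wild type (limma adjusted p = 7.3e-05 and 4.7e-04). The condensin I subunits differed: Ncapd2 changed by 1.65 ± 0.17 in the knockout and 1.31 ± 0.17 in the wild type. Ncaph had 8.49, 8.47 and 8.29 in KO hypoxia against 7.23, 7.58 and 7.76 in KO normoxia, and 8.66, 7.96 and 8.01 in WT hypoxia against 8.12, 7.79 and 7.76 in WT normoxia. It was called in the knockout (0.90 ± 0.20, limma adjusted p = 0.0130), though not without KO normoxia 1 (adjusted p = 0.0580) or KO hypoxia 1 (0.0518), and not in the wild type (0.32 ± 0.20, limma adjusted p = 0.337). Smc2, a core of both condensins, had 5.70, 5.79 and 5.22 in KO hypoxia against 4.66, 4.80 and 4.93 in KO normoxia, and 5.69, 5.22 and 5.45 in WT hypoxia against 4.86, 4.69 and 4.82 in WT normoxia. Its changes of 0.77 ± 0.16 and 0.66 ± 0.16 were called, with detection on 2 of 3 arrays in each hypoxic group and on none in normoxia. As a bound, Smc2 was at least 1.19-fold higher in the knockout, while the bound of 1.00 in the wild type gives no rise. The knockout call was lost without KO hypoxia 1 (adjusted p = 0.0511), and the wild-type call without WT normoxia 2 (0.0793), WT hypoxia 1 (0.0905) or WT hypoxia 3 (0.0526), with an offset of 50 (0.0622) and with the authors' deposited table (0.0637).

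Several members had more than 1 kept probe, and not all probes gave the same change. Of 14 such members, Foxm1, Spc25, Birc5, Cdca3, Nusap1, Shcbp1 and Cdc20 had all their kept probes called higher in both genotypes, although the 4 Cdc20 probes ranged from 0.78 to 2.83 in the knockout and the weakest Shcbp1 probe changed by 1.00 and 0.72. Cdk1 and Spag5, 2 of the members with the largest changes, each had a second kept probe that did not move. The second Cdk1 probe, detected on all 12 lung arrays, changed by 0.08 ± 0.17 in the knockout and -0.23 ± 0.17 in the wild type, against 2.47 and 2.84 for the first. The second Spag5 probe changed by 0.02 ± 0.14 and 0.09 ± 0.14, against 2.55 and 2.78. Kif4, Anln and Ncapd2 also had dimmer probes that were not called in both genotypes. Melk ran the other way: its brightest probe was not called, while a dimmer one, detected on 2 arrays of each hypoxic group and no normoxic array, changed by 0.92 ± 0.15 in the knockout (limma adjusted p = 0.00256) and 0.84 ± 0.15 in the wild type (0.00397). For Spc24 neither kept probe was called, the second changing by 0.73 ± 0.27 and 0.80 ± 0.27 (limma adjusted p = 0.133 and 0.0819). Which transcript form each probe reads was not analysed here.

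**Figure D3:**
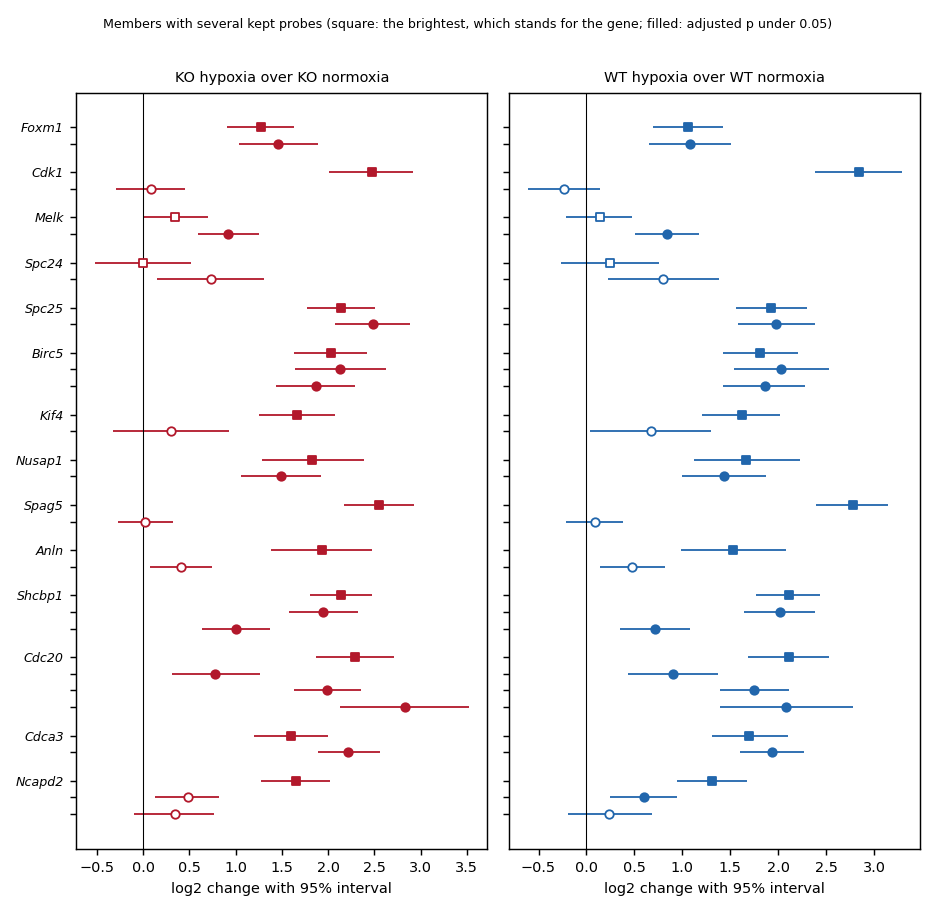
Log2 change with its 95% interval for every kept probe of the 14 members with several, in KO hypoxia over KO normoxia (left) and WT hypoxia over WT normoxia (right); squares mark the brightest probe, which stands for the gene, and filled symbols an adjusted p under 0.05. For Cdk1 and Spag5 one probe lies beyond 2 and the other near 0.

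The knockout and wild-type changes were close to each other. Of the 40 members, 33 were called in both genotypes, 4 in the knockout alone (Mybl2, Hmmr, Cdca5 and Ncaph) and Melk, Spc24 and Pttg1 in neither. Across the 40 members, which are no independent replicates, the 2 changes correlated at r = 0.948, and at 0.940 across the 31 detected in normoxia, against 0.557 across all 12571 genes, and the comparisons share no array. In the test of the difference between genotypes, 0 of 40 members were called by limma, with a background of 0.00795% of genes called in each direction. An unadjusted limma p under 0.05 was reached by 1 of the 40 and by 12.4% of all genes. The difference, KO change minus WT change, was above 0 for 30 of 40 members (75.0%, against 53.9% of all genes), with a median of 0.20 against 0.03. The smallest p-values were those of Cdca5 at 0.52 (95% interval 0.04 to 1.01, limma adjusted p = 0.355), Ncaph at 0.57 (-0.03 to 1.17, limma adjusted p = 0.425) and Cenpa at -0.37 (-0.79 to 0.04, limma adjusted p = 0.454). The intervals had a median half-width of 0.60 on the log2 scale with 3 mice per group.

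The genotypes were also compared within each oxygen level, in arrays that the hypoxia comparisons share. In room air 0 of 40 members were called between KO normoxia and WT normoxia by limma, where 4.09% of all genes were called higher and 2.96% lower. An unadjusted limma p under 0.05 was reached by 2 of the 40 and by 22.4% of all genes. The median change was -0.04. Cdca5 came nearest, 6.02 ± 0.08 in KO normoxia against 6.54 ± 0.12 in WT normoxia (SD, n = 3 each), a change of -0.52 ± 0.16 (limma adjusted p = 0.0672). It passed with arrays weighted by quality (-0.51, limma adjusted p = 0.0428) and without KO hypoxia 1 (-0.52, limma adjusted p = 0.0273). Cenpa was higher by 0.38 ± 0.14 without a call (limma adjusted p = 0.121), its 3 knockout arrays above its 3 wild-type ones. Anln changed by -0.52 ± 0.25 with overlapping groups (limma adjusted p = 0.249), by -0.02 without KO normoxia 1 and 2 and by 0.10 with the liver covariate. Under hypoxia, 0 of 40 members were called between KO hypoxia and WT hypoxia by limma, against 0% of genes called higher and 0.0557% lower. An unadjusted limma p under 0.05 was reached by 1 of the 40 and by 7.52% of all genes. The median was 0.10, with 33 of 40 changes above 0 (82.5%, against 52.9% of all genes), and no member had groups free of overlap, against 7.37% of all genes in the higher direction and 6.33% in the lower. Kif22 at 0.41 ± 0.18, Hmmr at 0.35 ± 0.20 and Ncapd2 at 0.30 ± 0.17 had the smallest p-values (limma adjusted p = 0.619, 0.809 and 0.816).

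Other genes of cell division moved with the members to differing degrees. The shares of all genes called were 4.96% higher and 3.82% lower in the knockout, and 7.48% higher and 4.32% lower in the wild type. These lists and those below passed the same filter as the members, so some of their genes, such as Stil, were undetected in WT normoxia. No count over genes detected in normoxia was made for them. Of 54 tested other spindle and kinetochore genes, 34 were called higher in KO hypoxia and 29 in WT hypoxia, 0 lower, with median changes of 0.84 and 0.64. Cep55, which recruits the abscission machinery, changed by 2.46 ± 0.21 and 2.38 ± 0.21, Aspm, a spindle pole organiser, by 2.12 ± 0.23 and 2.31 ± 0.23, and Cenph, a centromere protein, by 1.90 ± 0.15 and 1.92 ± 0.15. Of 17 tested S phase genes, 17 were called higher in the knockout and 13 in the wild type, with medians of 1.22 and 1.01. Uhrf1, which carries DNA methylation through replication, changed by 2.20 ± 0.17 and 2.25 ± 0.17, Tk1, a thymidine kinase, by 1.81 ± 0.17 and 2.54 ± 0.17, and Mcm5, a helicase subunit, by 1.82 ± 0.15 and 1.52 ± 0.15.

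Fewer than 5 genes were called higher in each of the lists that follow, and no difference between lists was tested. Of 13 genes listed for the anaphase promoting complex, the target of Cdc20 and Ube2c, 0 were called in the knockout and 1 in the wild type. That gene, Fzr1 at 0.42 ± 0.11, is an activator of the complex like Cdc20 and not a core subunit. The list of G1 cyclins and kinases also holds E2F transcription factors and the phosphatase Cdc25a. Of its 11 tested genes, 4 rose in the knockout (Ccne2, E2f1, Cdc25a and Cdk2) and 2 in the wild type (E2f1 and E2f3). No cyclin or kinase of the list was called in the wild type. Of 9 DREAM and MuvB subunits, Rbl1, Tfdp1 and Lin54 rose in the knockout, by 0.68, 0.62 and 0.42, and 0 were called in the wild type by limma. Among 16 CDK inhibitors and growth arrest genes, Cdkn1b (p27) fell by 0.87 in the knockout and by 0.64 in the wild type on the log2 scale, while Cdkn2c and Cdkn1c rose in both. Cdkn1a (p21) fell by 1.21 in the wild type (limma adjusted p = 0.0222) and was already lower in KO normoxia than in WT normoxia, at -1.67 ± 0.30 (limma adjusted p = 0.00718). Trp53inp1, a p53 target, was likewise called lower in WT hypoxia (-0.73 ± 0.19) and in KO normoxia over WT normoxia (-0.79 ± 0.19). Cdkn1a averaged 10.52 ± 0.11 in WT hypoxia and 11.73 ± 0.82 in WT normoxia (SD, n = 3 each), and both comparisons share the WT normoxia arrays.

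**Figure D4:**
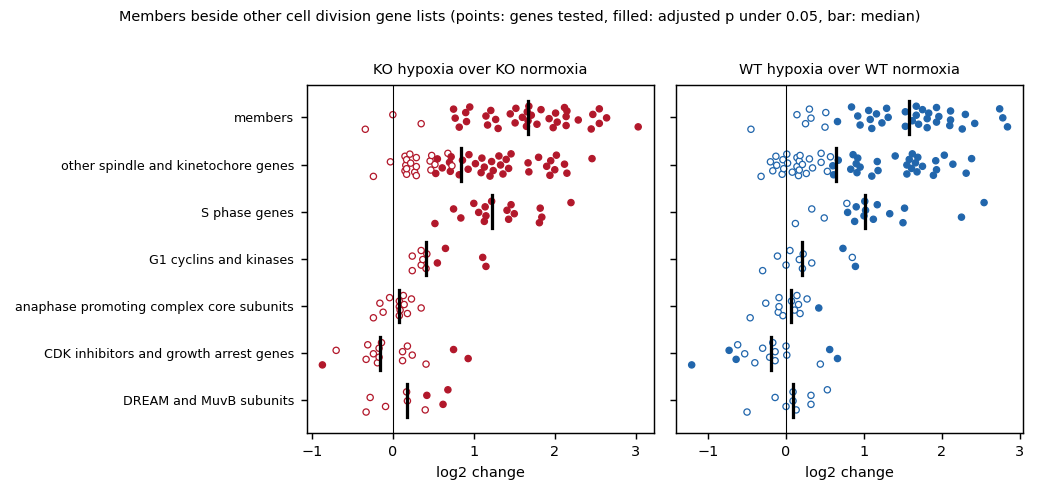
Log2 change of the tested genes of each list in KO hypoxia over KO normoxia (left) and WT hypoxia over WT normoxia (right), 1 point per gene, filled at an adjusted p under 0.05, with a bar at the median. The medians of the members, 1.67 and 1.58, lie to the right of those of the 6 other lists.

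Some markers of several cell types moved with the mitotic genes in hypoxia, and their part in the result was not tested. Fibroblast markers were called higher for 3 of 8 in the knockout (Col1a1, Col3a1 and Col1a2) and 4 of 8 in the wild type (these and Lum). Col1a1 led at 2.13 ± 0.16 and 2.44 ± 0.16. Pdgfra, Dcn, Tcf21 and Fbln1 were called in neither genotype. Changes in this list reached down to -0.49 in the knockout and -0.24 in the wild type, with medians of 0.27 and 0.88. The summed level of the list (linear scale, range over 3 arrays) was 58466 to 67215 in KO hypoxia against 37146 to 39310 in KO normoxia. It was 81203 to 93118 in WT hypoxia against 40257 to 51422 in WT normoxia. Smooth muscle and pericyte markers were called higher for 4 of 7 in both genotypes, with sums of 19761 to 21072 in KO hypoxia against 11312 to 14253 in KO normoxia and 24127 to 25190 in WT hypoxia against 13957 to 17181 in WT normoxia; Cnn1 was detected on no lung array. Macrophage markers were called higher for 2 of 6 and 3 of 6, with sums of 5061 to 5650 in KO hypoxia against 4082 to 4247 in KO normoxia and of 6035 to 7242 in WT hypoxia against 4486 to 4998 in WT normoxia. Of 11 endothelial markers, 1 (Emcn) was higher and 1 (Eng) lower in the knockout, and 1 (Emcn) higher and 3 (Eng, Ramp2 and Tek) lower in the wild type, with sums of 60995 to 63499 in KO hypoxia against 60481 to 67636 in KO normoxia and 52474 to 63081 in WT hypoxia against 70685 to 76088 in WT normoxia. No erythroid precursor marker, of 6 tested, was called in either genotype by limma. Their sums were 6152 to 9726 in KO hypoxia against 3771 to 5966 in KO normoxia, and 4981 to 7507 in WT hypoxia against 2826 to 7576 in WT normoxia, and Hemgn and Rhd were detected on no array. Of 5 tested neutrophil markers 4 were called lower in WT hypoxia, with sums of 8204 to 8991 in WT hypoxia against 9753, 42904 and 78582 on the 3 WT normoxia arrays. Of 5 tested lymphocyte markers 0 were called in either genotype by limma, and of 9 epithelial markers 1 (Pdpn) was called higher in WT hypoxia.

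Liver transcripts marked the KO normoxia arrays. Their summed level over 17 genes was 23467 to 33040 in KO hypoxia against 54768 to 218084 in KO normoxia, and 17061 to 18918 in WT hypoxia against 16631 to 26717 in WT normoxia, and 14 of 15 were called lower in KO hypoxia. Without KO normoxia 1 and 2 together, 30 members were called higher in the knockout. With the mean of the liver list as a covariate, 19 were, at a median log2 change of 1.48. The 18 calls lost with the covariate had changes from 0.58 (Smc2) to 2.08 (Ube2c) and limma adjusted p-values from 0.0504 (Kif23) to 0.455 (Ncaph). Bub1b, Mybl2, Smc2 and Ncaph had the highest, at 0.369, 0.396, 0.422 and 0.455. The 19 that remained were Foxm1, Cdk1, Ccna2, Aurka, Pbk, Ndc80, Spc25, Birc5, Cdca8, Kif11, Kif2c, Kif22, Prc1, Spag5, Shcbp1, Cdc20, Cdca3, Top2a and Ncapd2. In the wild type 32 members were called with the covariate. The part of these transcripts in the knockout result was not tested further.

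In the cells labelled PMVEC, rIL-4 left the mitotic genes without a call. These cells are a culture, and 33 of the 47 members were bright enough to test; Melk, Hmmr, Ttk, Ccna2, Smc2, Ect2 and Pttg1, testable in lung, were not. Of the 33, 0 were called by limma, against 1.13% of 9017 genes called higher and 0.543% lower. An unadjusted limma p under 0.05 was reached by 6 of the 33 and by 11.2% of all genes. The median change was -0.09, against -0.01 for all genes, and 8 of the 33 changes were above 0 (24.2%, against 47.8% of all genes). In the authors' deposited table the median was 0.01, but that table does not match the deposited intensities for 23 of 76 member probes in these cells. For 9 members the 3 rIL-4 arrays all lay below the 3 vehicle arrays, against 8.84% of all genes in that direction, and for 0 members they all lay above, against 7.60%.

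The smallest p-values in these cells belonged to Foxm1, Ndc80 and Cenpa. Foxm1, read here by another probe than in lung, had 6.79, 6.72 and 6.41 with rIL-4 against 7.11, 6.86 and 7.33 with vehicle, a change of -0.46 ± 0.14 (limma adjusted p = 0.171). The probe that stood for Foxm1 in lung had 6.83, 6.88 and 6.70 with rIL-4 against 6.73, 6.87 and 7.15 with vehicle, with overlapping groups and a change of -0.11 ± 0.13. Without vehicle 3 this lung probe was the brighter and stood for Foxm1, with a change of 0.01. That value does not show what the other probe did without vehicle 3. Ndc80 had 5.83, 6.23 and 6.35 against 6.51, 6.41 and 6.72, a change of -0.41 ± 0.14 (limma adjusted p = 0.247). The Ndc80 change was 0.01 in the authors' deposited table, which does not match the deposited intensities for this gene in these cells. Cenpa had 11.43, 11.31 and 11.32 with rIL-4 against 11.63, 11.72 and 11.57 with vehicle, a change of -0.29 ± 0.10 (limma adjusted p = 0.258). For these 3 probes all rIL-4 values lay below all vehicle values, though none passed the adjustment. Cdc20, Kif11 and Kif23 followed at -0.27, -0.38 and -0.30 (limma adjusted p = 0.301, 0.315 and 0.331). At the other end Spc25 had 8.27, 7.96 and 8.09 with rIL-4 against 7.66, 8.05 and 7.94 with vehicle. The 95% intervals of the 33 changes reached from -0.78 to 0.51, with a median half-width of 0.26, against median changes of 1.67 and 1.58 in hypoxic lung. Of the other spindle and kinetochore genes, 1 of 48 was called, the cohesin subunit Smc3, which fell by 0.70 on the log2 scale (limma adjusted p = 0.00562), and of 17 S phase genes 0 were called by limma.

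**Figure D5:**
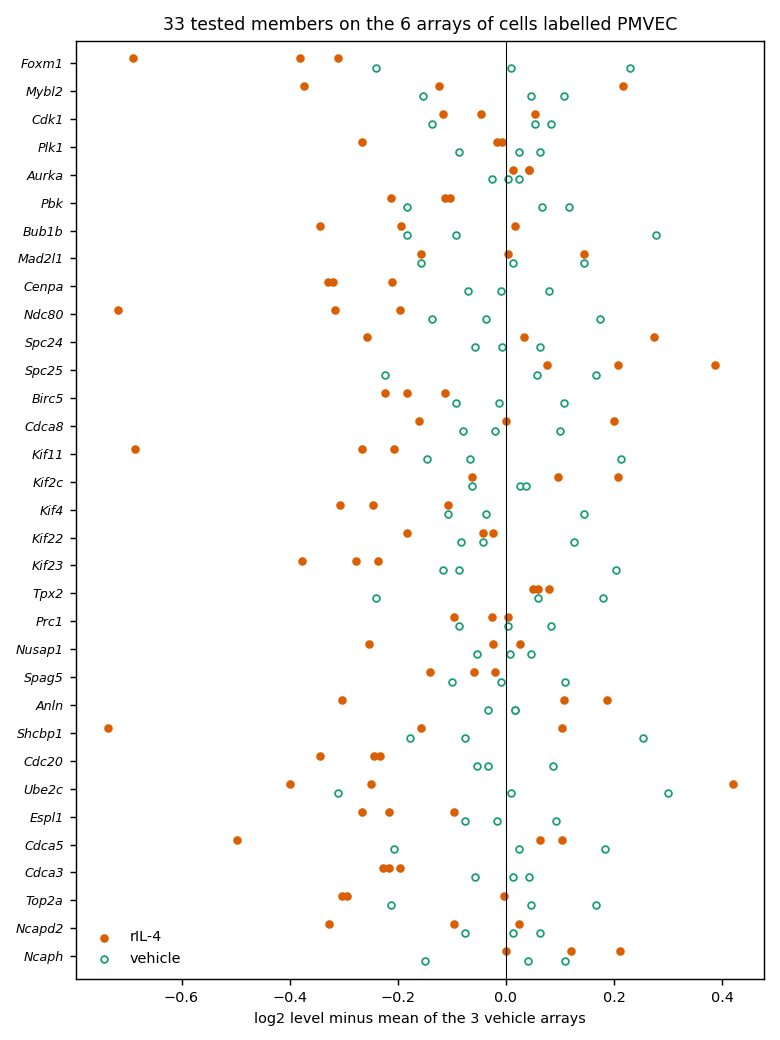
Log2 level of the 33 tested members on the 3 rIL-4 arrays (filled) and the 3 vehicle arrays (open) of the cells labelled PMVEC, as the difference from the vehicle mean. Filled points lie left of all open ones for 9 members, among them Foxm1, Ndc80, Cenpa, Cdc20 and Cdca3.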

How the data were processed

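RNA of 12 mouse lungs (4 groups of 3) and 6 cultures (2 groups of 3) was read on Illumina bead arrays. The authors deposited a table of non-normalized probe intensity with a detection p-value per probe and array, made with BeadStudio per the submitters' processing notes, and a table of log2 values shifted to a common median of 8. The log2 values matched the deposited intensities within 0.02 for 76 of 76 member probes in lung and 53 of 76 in PMVEC, so the intensities were used. Probes were named from GEO's platform annotation.

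Lung and PMVEC arrays were processed apart with neqc of limma 3.58.1 in R 4.3.3, which takes background from the detection p-values, adds an offset of 16, normalizes quantiles and takes log2. A probe entered the fit if 3 or more arrays detected it (p under 0.05), which left 17112 probes for lung and 11947 for PMVEC, and the brightest probe stood for its gene. Fits with lmFit and eBayes covered all genes, with two-sided p-values adjusted by Benjamini-Hochberg over 12571 genes in lung and 9017 in PMVEC. A gene undetected in the lower group has an "at least" fold against the lowest detected signal. The number of arrays limits the precision. The procedure was tested on simulated data.

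The members and lists were chosen with earlier results of these data known. Array values are given for the members of largest and smallest wild-type hypoxia change in each role, for those called in 1 genotype and for the smallest p-values of comparisons without a call, with others added after their values were seen. Alternatives covered background, offset, scaling, filter, probe choice, the authors' table, variance model, arrays fitted, liver transcripts and each array left out.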

Additional observations from a re-analysis of the deposited data

How the results depend on the processing

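No paired analysis was possible because the labels number the samples serially and name no pairs. The replicate numbers used here only count the arrays within each group. Among the members, 37 were called higher in KO hypoxia over KO normoxia, and 19 with the mean of the liver transcripts as a covariate, a fit that spends a degree of freedom on a measure that differs between these groups; the cause was not tested. In KO normoxia over WT normoxia 0 members were called, and 1, Cdca5, with array quality weights and likewise 1 without KO hypoxia 1; the cause was not tested. With 1 array left out at a time, the members called ranged from 34 to 38 in the knockout and from 31 to 34 in the wild type. The 38 came without WT normoxia 3, where a dimmer Melk probe stood for the gene and was called (0.92, limma adjusted p = 0.00264). The other spindle and kinetochore genes called ranged from 29 to 36 in the knockout and from 26 to 31 in the wild type. In KO normoxia over WT normoxia the range was 0 to 1, and it was 0 to 0 for the difference between genotypes, for KO hypoxia over WT hypoxia and for rIL-4 over vehicle. The median log2 change of the members was smaller without background correction, 1.00 in the knockout and 0.98 in the wild type, and in the authors' deposited table, 1.10 and 1.08. Of the members called, 19 of 37 in the knockout and 31 of 33 in the wild type were called under every alternative that tested them. No called change turned sign, but values without a call did, among them Spc24 in WT hypoxia (-0.04 without WT normoxia 2), Anln in KO normoxia over WT normoxia (0.10 with the liver covariate) and Ndc80 with rIL-4 (0.01 in the authors' table). So did the members' median in KO normoxia over WT normoxia (0.06 without KO normoxia 1) and with rIL-4 (0.01 in the authors' table). Foxm1 with rIL-4 was at 0.01 without vehicle 3, where the probe used in lung stood for the gene. For the cells labelled PMVEC, the authors' table departs from the deposited intensities for 23 of 76 member probes, those of Ndc80 among them. Dim probes limit what can be said of the 7 members below the filter, and of Melk, Hmmr and Smc2.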
